A study of Arabidopsis thaliana with 24 samples.

Results

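A set of 90 transcripts that stood high in cold-treated shoots of Arabidopsis thaliana at 3 h and again at 24 h was followed in the roots of the same experiment. Each is measured by 1 probe set of the ATH1 array, a group of short DNA probes for 1 transcript, whose brightness (intensity, in arbitrary units) gives the level. For the choice, the intensities of the 2 arrays of a group were averaged, 10 was added, and the sum was divided by the same sum for the same tissue at 0.5 h. Probe sets with a ratio of at least 4 in shoots at both 3 h and 24 h were taken, and 90 of the 22746 probe sets that are not array controls met this. The shoot arrays of 0.5, 3 and 24 h therefore chose the members, and their values are given as a description with no test. The root arrays and the shoot arrays of 1, 6 and 12 h had no part in the choice.

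Plants of the ecotype Col-0, with no transgene or mutation named, were raised at 24 °C on Murashige and Skoog medium, with 16 h of light a day and 50% humidity. On day 16, 3 h after the light came on, they went to 4 °C, and shoots and roots were taken after 0.5, 1, 3, 6, 12 and 24 h. Each of the 12 groups, 1 tissue at 1 time, has 2 arrays, 24 in all, and cold is the treatment that all of them share. No untreated group is among these samples, so 0.5 h in the cold is the baseline throughout. The 3, 6 and 12 h samples were taken at other hours of the day than those of 0.5 h, so the hour of the day and the time spent in the cold cannot be told apart there. The labels do not say whether the 2 samples of a group were taken from different plants, so the p-values measure the spread between arrays, which may be technical.

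Plants that meet low, non-freezing temperatures prepare for frost, a process called cold acclimation. Transcription factors of the CBF family are made early and switch on cold-regulated (COR) genes, many of whose products are hydrophilic proteins, the dehydrins and other late embryogenesis abundant (LEA) proteins, that protect membranes and enzymes when cells lose water to ice. Much of this knowledge comes from leaves, and the circadian clock sets at which hours of the day many of these genes answer the cold.

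Of the 90 members, 43 have exactly 1 gene in the platform annotation, 1 has several genes and 46 have none listed. The last 47 were measured and counted like the others but are given by number where they appear at all. Of the 43 genes, 34 are known by locus only, and none is measured by more than 1 of the member probe sets. Among them are 2 pairs of neighbours on a chromosome, COR15B beside COR15A and AT4G33980 beside AT4G33985. All 90 passed the filter on dim probe sets (2 or more arrays with an intensity of 30 or higher), which the rule itself makes certain, and 16073 probe sets were tested in all. Among probe sets with exactly 1 gene, the nearest inside the rule were LTI30, with shoot ratios of 4.01 at 3 h and 278 at 24 h, and AT3G27210, with 4.2 and 25.1. The nearest outside, again among probe sets with 1 gene, were AT2G39920, with 3.97 and 9.60, and AT4G28703, with 3.88 and 7.44.

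In shoots the members started dim and climbed for 12 h. The median intensity of the 90 was 25.4 at 0.5 h, and 50 members lay under 30 there. It was 42.4 at 1 h, 382 at 3 h, 677 at 6 h, 770 at 12 h and 493 at 24 h, while the median of all probe sets tested moved only from 72.5 to 62.4. The median ratio to 0.5 h was 6.97 at 3 h, 15.9 at 6 h, 18.6 at 12 h and 13.2 at 24 h. The ratio was still at least 4 for 87 members at 6 h and for 87 at 12 h, shares that stand beside 1.89% and 3.01% of all probe sets tested. These ratios divide by the same 0.5 h arrays that the rule used, so high values are what the choice favours. Not every member stayed high in between: AT5G45630, chosen here after its values were seen, had shoot ratios of 6.18 at 3 h, 3.23 at 6 h, 1.21 at 12 h and 10.7 at 24 h. The highest shoot level came at 12 h for 35 members, at 24 h for 27 and at 6 h for 23, and 56 members were lower at 24 h than at 12 h.

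Times and arrays outside the rule gave tests of the shoot course. At 6 h, 88 of the 90 members were higher than at 1 h (adjusted p under 0.05 in limma), against 7.81% of all probe sets tested, with a median log2 change of 3.50. At 12 h, 85 were higher than at 1 h, against 13.8%, with a median of 3.75. Between 6 and 12 h, 27 members went on rising (8.04% of all probe sets) and 13 fell (10.7%). The 27 were 14 to 17 without any 1 of the 4 arrays compared and 15 with a pseudocount of 1. The 2 members not called at 6 h were psaC and the unnamed probe set 247655_at. The baseline arrays touch the choice itself: the 25S rRNA control read 212 and 246 on the shoot arrays of 0.5 h and 889 to 1862 on all later shoot arrays. Had 1 h served as the baseline, 58 probe sets would have met the rule, 55 of them members.

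**Figure D1:**
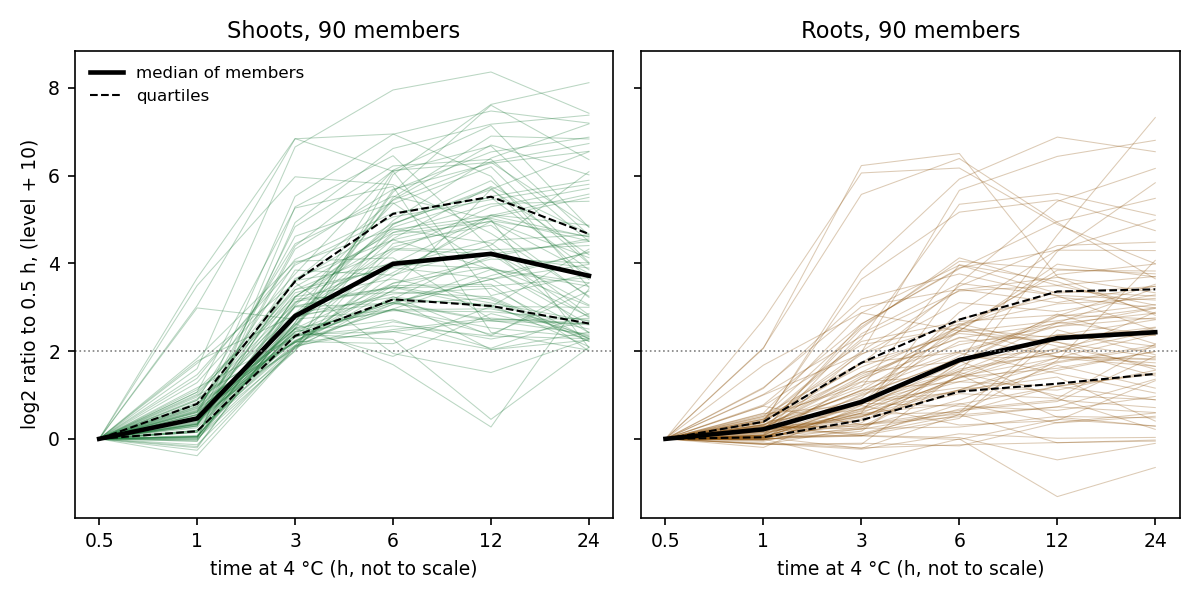
Ratio of each of the 90 members to its own level at 0.5 h (vertical axis, log2, with 10 added to each mean of 2 arrays) by time at 4 °C (horizontal axis, steps not to scale), in shoots (left) and roots (right). Thin lines are members, the thick line is their median, dashed lines the quartiles, and the dotted line marks a ratio of 4. The median crosses that line by 3 h in shoots, where the rule set it, and by 12 h in roots.

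In roots most of the same transcripts rose too, in growing number up to 24 h. At 1 h, 3 of the 90 were higher than at 0.5 h, against 0.0187% of all probe sets tested, and these 3 were all the calls made on the whole array at that time. At 3 h, 45 members were higher (2.13% of all probe sets), at 6 h 73 (5.23%), at 12 h 78 (9.93%) and at 24 h 79 (15.5%). Over the 5 times 83 members were called higher at least once, against 17.1% of all probe sets. The median log2 change of the members was 0.22 at 1 h, 0.83 at 3 h, 1.80 at 6 h, 2.30 at 12 h and 2.44 at 24 h. Over all probe sets tested it was −0.04 at 3 h and −0.21 at 24 h. A decline was called for 1 member, psaC, at 12 h (17.8% of all probe sets were lower) and at 24 h (32.5%). These 5 comparisons share the root arrays of 0.5 h. Against 1 h in their place 32 members were higher at 3 h (0.902%), 68 at 6 h (3.72%), 75 at 12 h (8.92%) and 80 at 24 h (14.4%).

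Counted by the size of the response, most members that reached a ratio of 4 in roots did so later than in shoots. A ratio of at least 4 was first reached in shoots at 1 h by 4 members and at 3 h by the other 86, as the rule demands (0.0684% and 1.1% of all probe sets tested had such a ratio in shoots at those times, and 3.34% at 24 h). In roots it was first reached at 1 h by 3 members, at 3 h by 15, at 6 h by 21, at 12 h by 15 and at 24 h by 7, and 29 members never reached it. At each time on its own 3 members had such a ratio in roots at 1 h (0.0187% of all probe sets), 18 at 3 h (0.342%), 39 at 6 h (1.07%), 52 at 12 h (1.73%) and 54 at 24 h (2.49%). Of the 61 that did, against 3.03% of all probe sets at any time, 43 did so at a later time than in shoots, 18 at the same time and none earlier. Since the rule fixes 3 h as the latest time for shoots, an earlier arrival in roots was possible only at 1 h, and a later one is what the choice favours. A measure scaled to the size of each member was the first time at which the log2 change reached 50% of its own highest value. It came later in roots for 43 of the 88 members for which it is defined, at the same sampled time for 43 and earlier for 2. The shoot values that the rule used enter this measure, so an early time in shoots is again what the choice favours. The 88 also include members with hardly any root change, such as AT3G62550, with a highest root ratio of 1.05. The highest level came at 24 h for 40 members in roots and for 27 in shoots, and it came later in roots for 27 members, at the same time for 46 and earlier for 17.

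**Figure D2:**
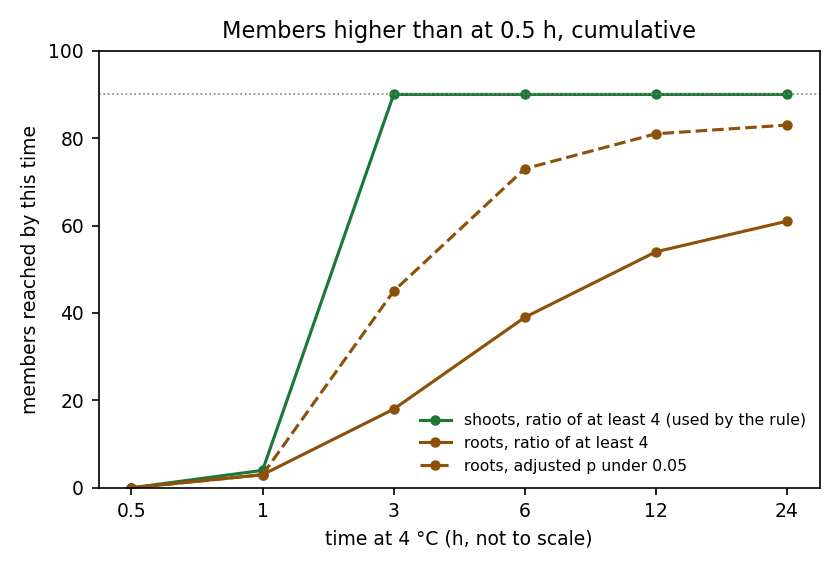
Number of members (vertical axis, of 90) that had reached a mark by each time at 4 °C (horizontal axis, steps not to scale). Solid lines count members with a ratio to 0.5 h of at least 4 in shoots (green, set by the rule) and roots (brown), and the dashed line counts members called higher in roots at an adjusted p under 0.05. Shoots stand at 90 from 3 h, while roots stand at 18, 39, 54 and 61 from 3 to 24 h by the ratio.

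More members rose in roots in the steps up to 6 h than in those after it. Against the preceding sample 32 members were higher at 3 h than at 1 h (0.902% of all probe sets), 36 at 6 h than at 3 h (1.14%), 22 at 12 h than at 6 h (3.27%) and 9 at 24 h than at 12 h (5.01%). Falls between neighbouring times were called for 6 members from 6 to 12 h (5.62%) and 7 from 12 to 24 h (6.61%). COR15A, COR15B and COR27 were among the 9 that still rose after 12 h. These counts depended on single arrays. The 32 were 19 without the second 1 h array. Without the second 6 h array the 36 were 21 and the 22 were 11, and the 22 were 14 without the first 6 h array and 13 without the second 12 h array. The 9 were 4 without either 12 h array and 3 without the second 24 h array. Of the falls, the 6 were 3 without either 6 h array or the second 12 h array. The 7 were 1 with a pseudocount of 1, without the first 12 h array or without the second 24 h array, and 3 with median centring, with no filter or without the second 12 h or the first 24 h array.

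The root changes were also smaller than the shoot changes over times the rule did not use. From 1 to 6 h the log2 change differed between the tissues for 63 members (5.57% of all probe sets), with 60 smaller in roots (3.24%) and 3 larger (2.33%). From 1 to 12 h it differed for 66 (19.1%), with 58 smaller in roots (10%) and 8 larger (9.13%). The 3 larger changes were 7 after quantile normalization and 5 with a pseudocount of 30. The 8 were 5 without the first shoot or the second root array of 1 h, and without the second shoot or the first root array of 12 h. The median of the root change minus the shoot change was −1.85 at 6 h and −1.81 at 12 h on the log2 scale. For a member under an intensity of 30 in either tissue at 1 h, the size of this difference depends on the 10 added to each value. Members were taken for a large change in shoots, so a smaller one in roots is what the choice favours. The highest ratio over all times was larger in shoots for 82 members and in roots for 8. At 24 h the ratio was larger in roots for 16. Across the 90 members the change from 1 to 12 h in one tissue went with that in the other at a Pearson r of 0.48, a description of probe sets that share the same arrays.

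**Figure D3:**
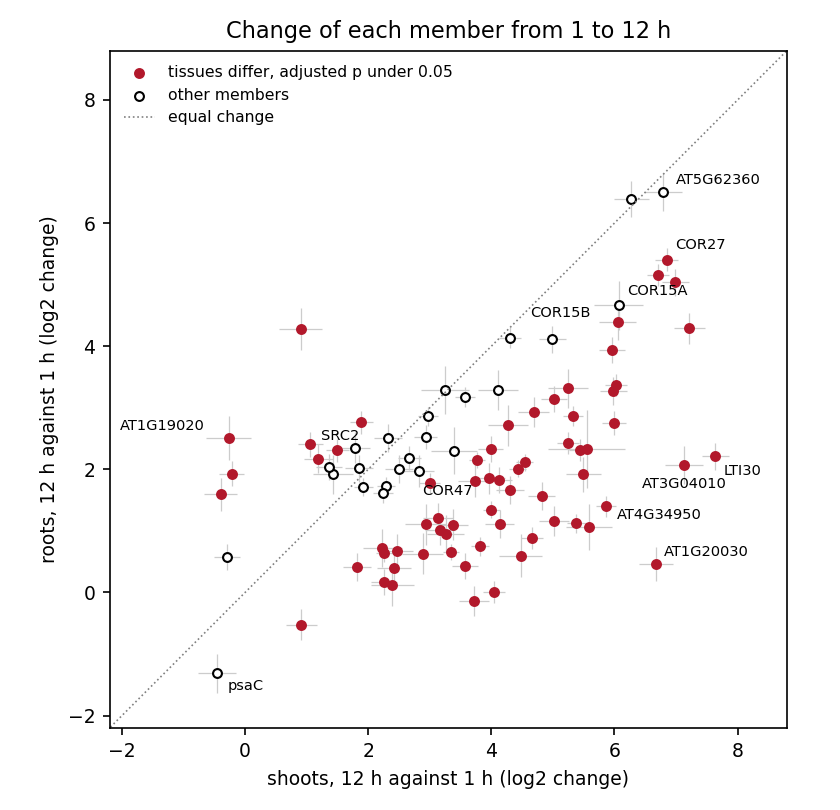
Log2 change from 1 to 12 h of each of the 90 members in shoots (horizontal axis) and roots (vertical axis), with bars of 1 standard error from limma and the dotted line at equal change. Filled points are the 66 members whose change differed between the tissues at an adjusted p under 0.05. Of these, 58 lie under the line, LTI30 and AT1G20030 far under it, and 8 above it, among them AT1G19020 and SRC2.

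The levels of many members differed between the tissues at 1 h, as did those of many probe sets at large. At 1 h, 52 members (57.8%) had a higher level in roots than in shoots, beside 45.8% of all probe sets tested. A lower level in roots was called for 20 (22.2%), beside 23.7%. At 6 h, 11 were higher (44.7%) and 52 lower in roots (23.8%), and at 12 h 14 were higher (43.7%) and 47 lower (25%). The 20 were 13 without the second shoot array of 1 h, and the 11 were 18 after quantile normalization. The median root intensity was 59.8 at 0.5 h, 190 at 3 h, 474 at 6 h and 592 at 24 h. The 52 members with the higher root level at 1 h had a median log2 change from 1 to 12 h of 4.02 in shoots and 1.97 in roots. For the 20 with the lower root level it was 2.06 and 2.04, and for the 18 not called at 1 h 4.11 and 2.42. The 1 h level enters both the sorting and the change, so these medians are not independent of it. In whole tissues a lower level in fewer cells and less RNA in each cell cannot be told apart.

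**Figure D4:**
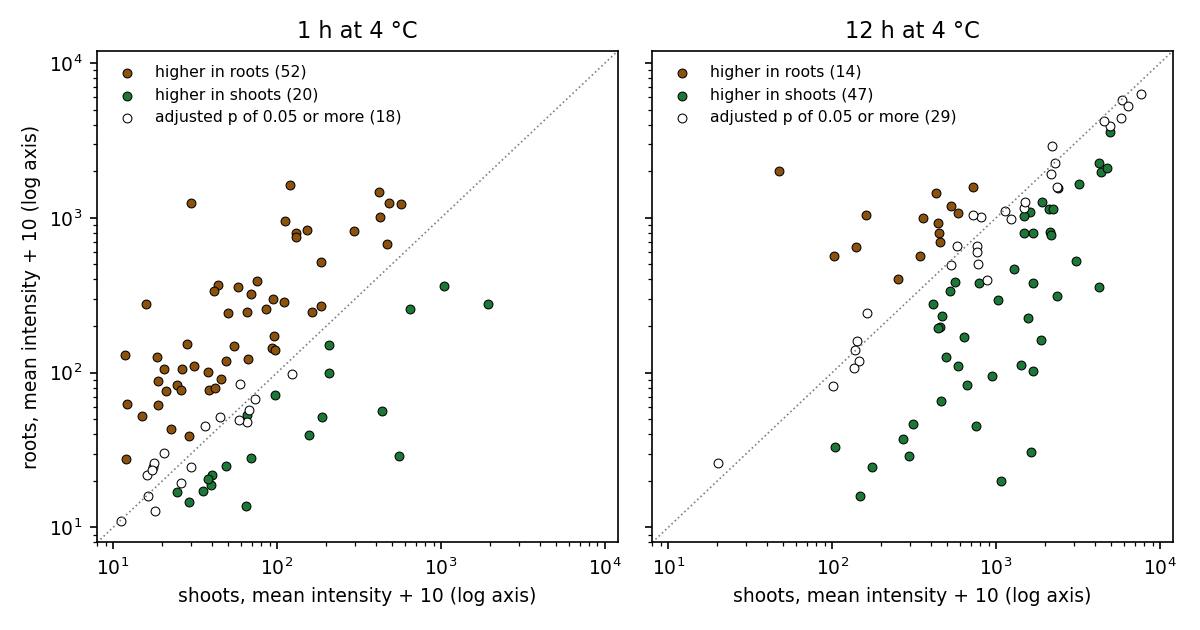
Mean intensity of 2 arrays plus 10 of each member in shoots (horizontal, log axis) and roots (vertical, log axis) at 1 h (left) and 12 h (right). Brown points are higher in roots and green points higher in shoots at an adjusted p under 0.05, and the dotted line is equality. At 1 h 52 members lie higher in roots, and at 12 h 14 do.

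COR15A and COR15B, which encode small proteins of the chloroplast stroma that protect membranes during freezing, were called higher in roots from 6 h on and ended there below their shoot levels. COR15A read 36.5 and 44.1 on the shoot arrays of 0.5 h, 42.6 and 66.2 at 1 h, 538 and 169 at 3 h, 1661 and 1483 at 6 h, 4236 and 4243 at 12 h, and 7066 and 7515 at 24 h. On root arrays it read 0.752 and 7.51, then 3.49 and 4.10, 5.68 and 20.1, 45.02 and 30.03, 282 and 408, and 1815 and 2700 at the same times. Every root array was below both shoot arrays of its time, and the root arrays first reached an intensity of 30 at 6 h. Against 0.5 h the root log2 change was 0.66 ± 0.40 (SE; adjusted p = 0.51) at 3 h, 1.77 ± 0.40 (adjusted p = 0.0087) at 6 h, 4.67 ± 0.40 at 12 h and 7.34 ± 0.40 (adjusted p = 3.5e-10) at 24 h. The call at 6 h was lost with a pseudocount of 30 (adjusted p = 0.071) and without the first array of 0.5 h (adjusted p = 0.13) or of 6 h (adjusted p = 0.11). The ratio at 24 h was 160 in roots and 145 in shoots, but both root arrays of 0.5 h lay under 30, so the size of the root ratio depends on the 10 added to each value. Its change from 1 to 6 h was smaller in roots, with a difference of −2.87 ± 0.57 (adjusted p = 0.0038), and that from 1 to 12 h differed by −1.41 ± 0.57 (adjusted p = 0.099).

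COR15B followed its neighbour. Its root arrays read 17.8 and 16.7 at 0.5 h, 10.1 and 19.8 at 3 h, 67.5 and 66.0 at 6 h, 502 and 531 at 12 h, and 1343 and 1752 at 24 h, against 4071 and 4154 in shoots at 24 h. At 3 h the root arrays lay around those of 0.5 h (log2 change −0.15 ± 0.30, adjusted p = 0.89), while the shoot arrays already read 625 and 302. The root rise was 1.5 ± 0.30 (adjusted p = 0.0033) at 6 h and 5.83 ± 0.30 (adjusted p = 1.6e-10) at 24 h. Both root arrays of 0.5 h lay under 30, so these sizes depend on the 10 added. Both COR15 genes first passed a ratio of 4 in roots at 12 h, and in shoots at 3 h. On green tissue markers (RCA, SBPASE, LHCB4.2 and PRK) the summed intensity of the root arrays was 116 to 443, against 12890 to 21580 on shoot arrays, and the part of green tissue in the root values was not tested.

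The dehydrins reached similar levels in both tissues from different starts. LTI30 is a dehydrin that binds membranes, and COR47 is an acidic dehydrin. LTI30 read 12.3 and 27.4 on the shoot arrays of 0.5 h, 93.6 and 126 at 3 h, 1966 and 1891 at 6 h, 6039 and 5723 at 12 h, and 8262 and 8331 at 24 h. On root arrays it read 968 and 787 at 0.5 h, 2609 and 2901 at 3 h, 4620 and 5012 at 6 h, 5147 and 6304 at 12 h, and 6639 and 7424 at 24 h. Root arrays thus lay far above shoot arrays up to 6 h, the groups overlapped at 12 h, and shoots were above roots at 24 h. The root level was higher by 5.38 ± 0.22 (adjusted p = 5.9e-13) at 1 h and by 1.31 ± 0.22 (adjusted p = 3.9e-05) at 6 h, and differed by −0.05 ± 0.22 (adjusted p = 0.86) at 12 h. In roots LTI30 rose by 1.65 ± 0.22 (adjusted p = 0.00014) at 3 h and 2.99 ± 0.22 (adjusted p = 1.1e-08) at 24 h. From 1 to 12 h its change was smaller in roots, with a difference of −5.43 ± 0.30 (adjusted p = 4.3e-09).

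COR47 had the same form on a smaller scale. It read 196 and 168 in shoots and 1512 and 1134 in roots at 0.5 h, and 8489 and 8957 in shoots and 6834 and 7836 in roots at 24 h. The root change was 0.84 ± 0.26 (adjusted p = 0.12) at 3 h, but 1.31 (adjusted p = 0.0048) without the first array of 3 h. COR47 rose in roots by 1.55 ± 0.26 (adjusted p = 0.00057) at 6 h and 2.47 ± 0.26 (adjusted p = 8.5e-07) at 24 h. AT2G23120, a LEA protein gene chosen here after its values were seen, read 292 and 421 in shoots and 1223 and 1242 in roots at 0.5 h, and 5678 and 5862 in shoots and 5171 and 5722 in roots at 24 h. For these 3 genes the root ratio at 24 h was 4.39 to 7.93 and the shoot ratio 15.8 to 278, and the mean root level at 24 h was below that of shoots.

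**Figure D5:**
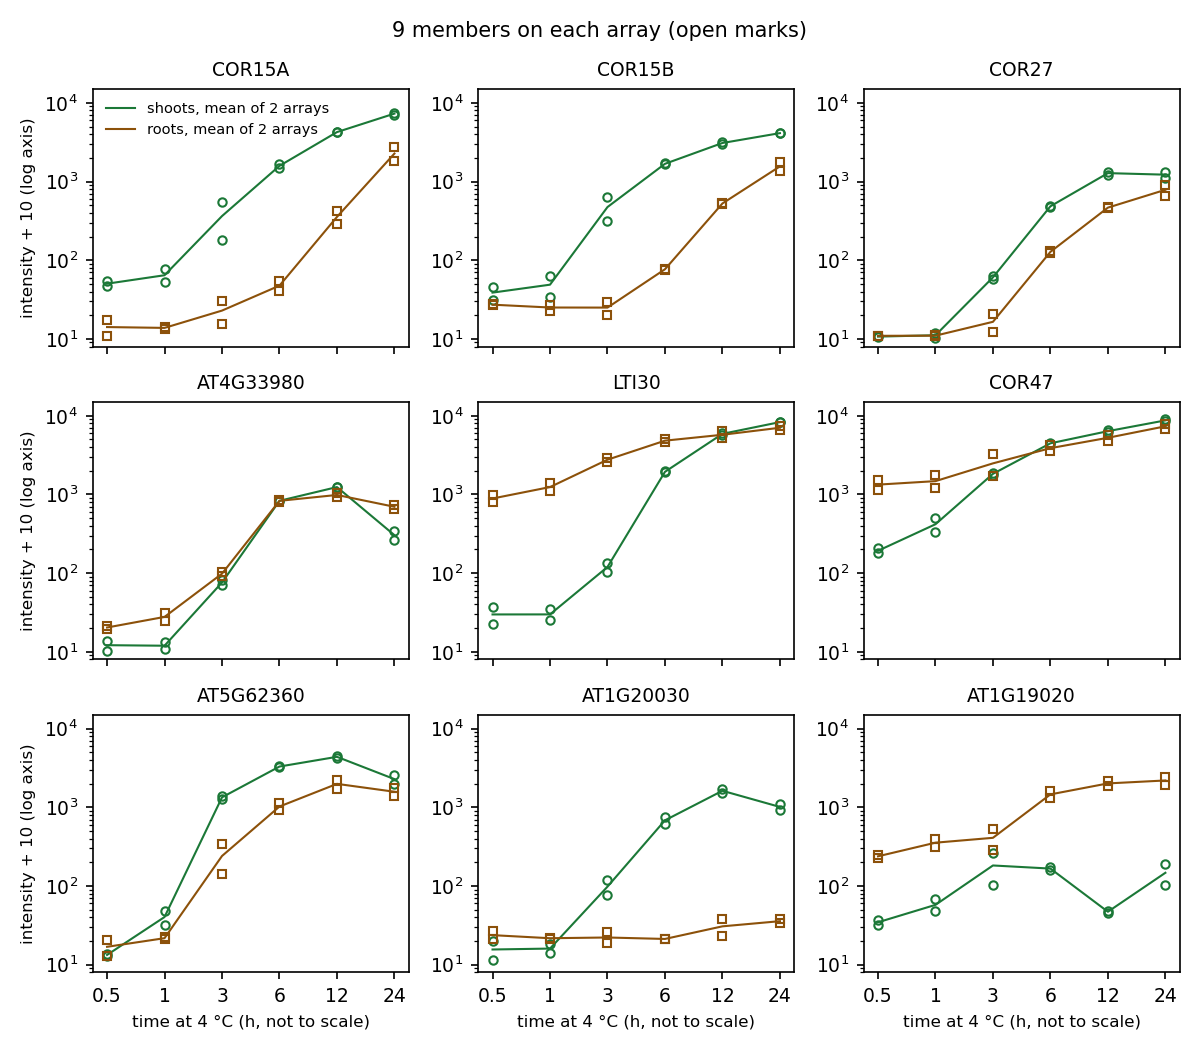
Intensity plus 10 (vertical, log axis) of 9 members on each of the 24 arrays by time at 4 °C (horizontal, steps not to scale), with circles for shoot arrays, squares for root arrays and lines through the means of 2 arrays. COR15A, COR15B and COR27 reach a ratio of 4 later in roots than in shoots, LTI30 and COR47 start higher in roots, AT1G20030 stays near the floor in roots, and AT1G19020 is higher in roots throughout.

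Of the clock-linked pair COR27 and AT4G33980, also called COR28, the first reached a ratio of 4 at 6 h in roots and the second at 3 h, and both at 3 h in shoots. By the time at which 50% of the highest change was reached, 6 h in both tissues, neither gene was later in roots. Both encode small proteins that repress clock genes and are themselves induced by cold. COR27 read 0.429 and 0.947 in shoots and 0.839 and 1.04 in roots at 0.5 h, so neither tissue was above the floor. At 3 h it read 52.7 and 48.4 in shoots and 10.7 and 2.28 in roots, at 6 h 470 and 480 against 115 and 121, and at 24 h 1330 and 1094 against 653 and 897. The root arrays were below the shoot arrays at each of these times. The root change was 0.54 ± 0.19 (adjusted p = 0.20) at 3 h, a rise past the threshold (0.92, adjusted p = 0.0098) without the second array of 3 h, and 6.15 ± 0.19 (adjusted p = 6.6e-13) at 24 h. From 1 to 12 h COR27 rose less in roots, with a difference of −1.44 ± 0.27 on the log2 scale (adjusted p = 0.00089).

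AT4G33980 also rose less in roots, with a difference of −1.55 ± 0.25 (adjusted p = 0.00021) in the 1 to 12 h change, from a higher root level at 1 h. It read 72.0 and 60.1 in shoots and 94.8 and 82.1 in roots at 3 h, 820 and 820 against 801 and 838 at 6 h, and 337 and 250 against 648 and 726 at 24 h. The root arrays lay above the shoot arrays at 3 h and 24 h and around them at 6 h. It rose in roots by 2.27 ± 0.17 (adjusted p = 4.2e-07) at 3 h and 5.35 ± 0.17 (adjusted p = 1.5e-12) at 6 h. These sizes depend on the 10 added, since its root arrays of 0.5 h lay under 30. In shoots it stood at 1227 and 1235 at 12 h, so its shoot level at 24 h was well below that. Its neighbour AT4G33985 had a root change of 1.28 ± 0.24 (adjusted p = 0.0019) at 6 h, a call lost with a pseudocount of 1 (adjusted p = 0.12), and never reached a ratio of 4 in roots.

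AT5G62360, whose family holds inhibitors of invertases and of pectin methylesterases, read 3.55 and 3.08 in shoots at 0.5 h, 1394 and 1268 at 3 h, 4502 and 4256 at 12 h, and 2586 and 1965 at 24 h. On root arrays it read 2.91 and 10.9, 134 and 328, 1710 and 2247, and 1380 and 1758 at those times. Its root arrays were below its shoot arrays from 3 h on, and its root rise was 6.91 ± 0.31 (adjusted p = 5.9e-11) at 12 h, a size that depends on the 10 added since its root arrays of 0.5 h lay under 30. The 1 to 12 h change differed between tissues by −0.29 ± 0.44 (adjusted p = 0.69). AT4G18280, of a glycine-rich cell wall family, rose in roots by 2.6 ± 0.17 at 3 h and 4.29 ± 0.17 (adjusted p = 1.3e-11) at 24 h, when it read 1197 and 1280 in roots and 1388 and 1267 in shoots. Its 1 to 12 h change differed between tissues by −0.16 ± 0.25 (adjusted p = 0.70).

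The thaumatin family, secreted proteins related to a sweet protein and to defence proteins, has 2 genes among the 43 members with 1 gene listed. AT4G36010 read 877 and 825 in shoots and 1026 and 1502 in roots at 24 h. Its root change was 0.77 ± 0.21 (adjusted p = 0.073) at 3 h. That became a call after quantile normalization (adjusted p = 0.048), with the replicate block (adjusted p = 0.028), and without the second array of 0.5 h (adjusted p = 0.034) or the first of 3 h (adjusted p = 0.016). It rose by 2.49 ± 0.21 (adjusted p = 3.7e-07) at 6 h. AT1G20030 did not follow: it read 1711 and 1518 in shoots at 12 h and 13.3 and 28.2 in roots. Its root values stayed between 8.63 and 28.2 at all times, near the floor, and its root change at 24 h was 0.60 ± 0.28 (adjusted p = 0.084). That missed call became one with arrays centred on their medians (adjusted p = 0.027) or quantile normalized (adjusted p = 0.016). The 1 to 12 h change differed between tissues by −6.21 ± 0.39 (adjusted p = 1.1e-08), a size that depends on the 10 added, since no root array reached 30. AT3G04010, of a glycosyl hydrolase family that cuts beta-glucans, was late in roots. It read 237 and 190 in roots at 0.5 h, 237 and 360 at 6 h, 1182 and 1092 at 12 h, and 1245 and 1675 at 24 h, while shoots went from 1.77 and 1.11 to 1993 and 2449 at 12 h. The root change was 0.44 ± 0.31 (adjusted p = 0.46) at 6 h and 2.37 ± 0.31 (adjusted p = 2.1e-05) at 12 h. The shoots passed the roots between 3 and 6 h, but at 24 h they read 1136 and 732, below the root arrays.

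AT5G17850, a cation and calcium exchanger, read 30.1 and 50.4 in roots at 0.5 h, 541 and 561 at 6 h, and 984 and 1246 at 24 h, above the 693 and 510 of shoots at 24 h. It rose in roots by 1.74 ± 0.22 (adjusted p = 0.00012) at 3 h and 4.50 ± 0.22 (adjusted p = 1.1e-10) at 24 h. Of the major facilitator superfamily, AT4G34950 read 1804 and 1555 in shoots at 12 h and 95.9 and 88.4 in roots, and its 1 to 12 h change was smaller in roots, with a difference of −4.46 ± 0.24 (adjusted p = 2.3e-09). AT1G22570 of the same superfamily read 919 and 955 in shoots and 81.8 and 88.2 in roots at 12 h, with a root rise of 0.73 ± 0.15 (adjusted p = 0.0013). Its smaller root call at 6 h (0.55 ± 0.15, adjusted p = 0.028) was lost without any 1 of the 4 arrays compared. AT1G51090, with a heavy-metal-associated domain, rose strongly in both: at 24 h it read 2807 and 2570 in shoots and 383 and 605 in roots, a root change of 4.96 ± 0.25 (adjusted p = 1.5e-10).

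Of genes linked to signalling, PUB19 and SRC2 were first called in roots at 3 h, as were 42 members in all. PUB19, a U-box ubiquitin ligase that damps the response to abscisic acid, read 35.2 and 34.3 in roots at 0.5 h, 180 and 312 at 3 h, 774 and 769 at 6 h, and 470 and 676 at 24 h. On shoot arrays it stood at 572 and 369 at 6 h and at 2434 and 2490 at 24 h, so the root arrays were the higher ones at 6 h and the lower ones at 24 h. Its root rise was 2.47 ± 0.32 (adjusted p = 0.00014) at 3 h and 4.13 ± 0.32 at 6 h. SRC2, a membrane protein with a C2 domain known from cold-treated soybean, read 275 and 247 in roots at 0.5 h, 950 and 1555 at 3 h, and 1853 and 1966 at 12 h, when shoots read 2222 and 2094. It rose in roots by 2.18 ± 0.20 (adjusted p = 3.7e-06) at 3 h. From 1 to 12 h it rose more in roots than in shoots, by 1.34 ± 0.28 (adjusted p = 0.0024). AT2G17660, of the RIN4 family of defence regulators, read 491 and 482 in shoots and 23.3 and 27.8 in roots at 6 h. No root array of AT2G17660 reached 30 at any time, so no size of a root change is given for it. AT1G11210, whose product has no role given here, rose in roots by 3.62 ± 0.22 (adjusted p = 2.5e-08) at 3 h. It read 618 and 641 in roots at 6 h, against 1552 and 1423 in shoots. Its root arrays of 0.5 h read 4.39 and 11.2, so the size of its rise depends on the 10 added.

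Of the genes with no role given here, AT3G27210 and AT1G19370 began higher in roots and were overtaken by shoots. AT3G27210 read 12.5 and 8.01 in shoots and 92.3 and 103 in roots at 0.5 h, and 574 and 424 in shoots and 297 and 319 in roots at 24 h, with a smaller 1 to 12 h change in roots, a difference of −3.78 ± 0.25 (adjusted p = 2.4e-08). Its root call at 3 h (0.82 ± 0.18, adjusted p = 0.018) was lost without the second array of 3 h (adjusted p = 0.29), without either array of 0.5 h (adjusted p = 0.17 and 0.064) and with a pseudocount of 1 (adjusted p = 0.051). AT1G19370 read 667 and 593 in shoots and 163 and 154 in roots at 12 h, a root rise of 1.20 ± 0.24 (adjusted p = 0.0013). By 24 h its arrays overlapped, at 231 and 205 in shoots and 225 and 164 in roots. The 16 genes that the naming rule left out were chosen for mention after their values were seen. That rule names the genes highest and lowest by root change at 24 h, so these 16 lie between them by construction. All 16 were called higher in roots at 24 h, by 1.58 for AT1G56660 to 3.34 for AT2G34930, a leucine-rich repeat protein gene. The genes not called higher then, AT1G20030, AT3G51660, AT3G62550 and psaC, were among the lowest that the rule names. The calls and sizes of the 16 thus reflect the choice and are given as a description. LCR69, of the plant defensin family, went from 669 and 735 to 2739 and 2904 in roots and from 265 and 248 to 6402 and 6121 in shoots between 0.5 and 24 h. AT2G16890, a UDP-glycosyltransferase gene, went from 107 and 126 to 864 and 985 in roots, above the 487 and 395 of shoots at 24 h. Over the whole set 39 of the 43 members with 1 gene and 40 of the 47 others were called higher in roots at 24 h, beside 15.5% of all probe sets tested.

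The 8 members with a larger 1 to 12 h change in roots are 8.89% of the set, near the 9.13% of all probe sets tested. One of them, AT1G19020, read 238 and 220 in roots at 0.5 h, 525 and 276 at 3 h, 1287 and 1616 at 6 h, 1869 and 2141 at 12 h, and 1923 and 2451 at 24 h. On shoot arrays it read 21.9 and 27.4 at 0.5 h, 93.9 and 251 at 3 h, 148 and 165 at 6 h, 38.6 and 35.7 at 12 h, and 181 and 93.6 at 24 h. Every root array lay above every shoot array of the same time, and the shoot course dipped at 12 h while the root course did not. It rose in roots by 3.08 ± 0.36 (adjusted p = 6.4e-06) at 12 h, and its 1 to 12 h change was larger in roots by 2.78 ± 0.51 (adjusted p = 0.00075). AT1G02660, of a plastid lipase family, rose more in roots by 0.82 ± 0.26 (adjusted p = 0.037) over the same times, though its root values at 12 h, 198 and 173, were under the 429 and 431 of shoots. The largest such difference belonged to an unnamed probe set, 246099_at, singled out after its values were seen. It read 15.0 and 30.7 in roots at 0.5 h, 1277 and 738 at 12 h, and 1393 and 1528 at 24 h, while shoots went from 2236 and 2004 at 6 h to 720 and 873 at 12 h, a difference in change of 3.39 ± 0.48 (adjusted p = 7.2e-05).

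The 3 members called in roots at 1 h have no gene listed and were also singled out after their values were seen. Probe set 254066_at read 23.2 and 28.6 in roots at 0.5 h, 153 and 130 at 1 h, 1703 and 1693 at 3 h, 2953 and 3050 at 6 h, 1140 and 1033 at 12 h, and 426 and 454 at 24 h. On shoot arrays it read 3197 and 2574 at 3 h, 3125 and 3105 at 6 h, and 249 and 283 at 24 h. The course in roots was thus an early rise with a fall after 6 h, like that in shoots, and reached a like level. Probe set 254074_at peaked in roots at 1137 and 1084 at 6 h, and in shoots at 1578 and 1808 at 3 h. Probe set 254075_at read 2701 and 2910 in roots at 6 h and 3533 and 3712 in shoots at 3 h. All 3 fell in roots from 6 to 12 h and again from 12 to 24 h, and together with psaC they are the 4 members that passed a ratio of 4 in shoots at 1 h. From 1 to 6 h 254074_at rose more in roots, by 2.05 ± 0.38 (adjusted p = 0.0023).

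At the other end 7 members were never called higher in roots, of which 4 have a gene name. AT3G62550, of the universal stress protein family, read 131 and 175 in shoots at 0.5 h and 1629 and 1159 at 6 h, against 18.3 and 17.0 and then 17.2 and 19.2 in roots. No root array of AT3G62550 was above 22.5, so this transcript was near the floor there throughout. AT3G51660, of the tautomerase family that includes the macrophage migration inhibitory factor of animals, read 704 and 795 in shoots at 12 h and 42.1 and 28.0 in roots. Its root values lay between 23.9 and 66.1, with a change of −0.03 ± 0.24 (adjusted p = 0.94) at 24 h. The third is AT1G20030. Of all 90 members, 5 had a mean intensity under 30 in roots at every time. Among these 5 is AT2G17660, which was called higher in roots at 6 h.

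The last named gene never called higher in roots is psaC, the chloroplast gene for an iron-sulfur subunit of photosystem I. It had another shoot course than the set as a whole. In shoots it read 217 and 251 at 0.5 h, then 1722 and 2128 at 1 h, 1248 and 1969 at 3 h, 1908 and 1828 at 6 h, 1546 and 1257 at 12 h, and 1178 and 1236 at 24 h. After 1 h no later rise was seen, with a change of −0.04 ± 0.31 (adjusted p = 0.96) from 1 to 6 h and −0.45 ± 0.31 (adjusted p = 0.28) from 1 to 12 h. Its place in the set thus rests on the 0.5 h arrays, the ones with the low 25S rRNA reading, and the part of that reading was not tested. In roots it read 266 and 273 at 0.5 h, 97.8 and 107 at 12 h, and 94.2 and 241 at 24 h. It fell in roots by 1.32 ± 0.31 (adjusted p = 0.0046) at 12 h. The call at 24 h (−0.79 ± 0.31, adjusted p = 0.048) was lost with several settings, and the value was −0.15 without the first array of 24 h.

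Members of textbook pathways were few in the annotation used here. Of a list of 24 loci for cold-regulated protective proteins, 7 had a measured and named probe set and 6 of these are members: COR15A, COR15B, COR27, AT4G33980, LTI30 and COR47. The list was written with earlier results of these data known. In roots 2 of the 7 were called higher at 3 h (LTI30 and AT4G33980), beside 2.13% of all probe sets tested. All 7 were called at 6, 12 and 24 h, beside 5.23%, 9.93% and 15.5%. The median log2 change of the 7 was 0.66 at 3 h, 4.27 at 12 h and 5.83 at 24 h. Over all probe sets tested it was −0.04, −0.13 and −0.21. The seventh, LEA4-5, misses the rule because its shoots rose late: it averaged 3.38 in shoots at 3 h and 3483 at 24 h, and 1266 in roots at 24 h. The 46 members with no gene listed could not be matched to any list, so a list with no named member may still have members. Of 19 clock loci only GI had a measured and named probe set. GI, not a member, rose by 3.10 ± 0.16 in shoots from 1 to 6 h. In roots it rose by 1.76 ± 0.16 at 24 h. Of 26 loci of cold transcription regulators only STZ and WRKY53 had a measured and named probe set, and neither is a member. STZ rose in roots at 3 h (2.15 ± 0.25, adjusted p = 4.1e-05). Of 11 touch and calcium loci 3 were measured under a name, none of them a member. CML38 and CML37 of these 3 rose in roots at 3 h, by 2.45 ± 0.51 and 2.84 ± 0.28. PWD and DPE1, the 2 of 17 sugar and proline loci measured under a name, were not called higher in roots at any time. No gene of the abscisic acid or photoprotection lists was measured under a name.

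The members were set beside the other cold-responsive probe sets of shoots. Root calls were made for 45 members at 3 h (50%) and 79 at 24 h (87.8%), beside 2.13% and 15.5% of all probe sets tested. Another 87 probe sets met the shoot ratio at 3 h but not at 24 h. Of these, 56 were higher in roots at 3 h (64.4%), 67 at 6 h (77.0%) and 48 at 24 h (55.2%). That set thus also had both early and late root calls. A further 447 tested probe sets met the shoot ratio at 24 h but not at 3 h. Of these, 23 were higher in roots at 3 h (5.1%), 118 at 6 h (26.4%) and 357 at 24 h (79.9%). The median log2 changes in roots at 24 h were 0.76 for the first set and 1.29 for the second, against 2.44 for the members. The 3 sets were chosen on the same shoot arrays by different demands, and the differences between them were not tested.

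Arrays carry no read depth, and precision is limited by the number of arrays. Between the arrays of a group Pearson r over probe sets was 0.952 to 0.995, and none was a copy of its partner. The spread of their log2 difference (SD) was 0.47 for roots at 3 h and 0.44 for shoots at 1 h, and 0.23 to 0.35 in the other groups. Roots at 3 h thus rest on the noisiest pair: the summed green tissue markers read 184 on the first and 443 on the second of those arrays, and without the second array 37 members rather than 45 were called at 3 h. Root markers (PYK10, EXPA7 and EXPA18) summed to 2988 to 4040 on root arrays and 431 to 789 on shoot arrays, and all 4 green markers were lower in roots at 1 h.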

How the data were processed

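Total RNA of 24 samples was read on Affymetrix ATH1 arrays. The deposited files hold 1 linear intensity for each probe set, computed with MAS5 per the submitters' processing notes, its version and settings not given in the sources used here. The mean intensity trimmed by 2% at each end was 100 on every array, so arrays had been scaled to 1 target, which can shift calls where the spread of intensities differs. Groups and replicate numbers came from the sample titles.

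To the intensities a pseudocount of 10 was added and log2 was taken, which understates changes of dim genes. Probe sets that reached an intensity of 30 on 2 or more arrays were fitted with limma 3.58.1 (R 4.3.3) as 12 group means over 24 arrays. Tests were 2-sided, with Benjamini-Hochberg adjustment over all 16073 within each comparison and a threshold of 0.05. The fit was tested on simulated data. Genes came from the platform annotation. Promoter motifs were not analysed here.

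Members, lists and tests were chosen with earlier results of these data known. Named were members with 1 gene: the 10 highest and 10 lowest by root change at 24 h, the 6 called first in roots, the 5 highest and 5 lowest in the tissue difference at 6 h and 3 each at 12 h, the 8 highest by shoot ratio at 24 h, list genes, and probe sets beside the threshold. Ties among the members called first were settled by the larger root change at 3 h. Alternatives were other scalings, pseudocounts, filters and fits, a replicate block, 1 h as the baseline and arrays left out.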

Additional observations from a re-analysis of the deposited data

Results flagged for a closer look

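These values are set apart because the same change, from 1 h to a later time, differed between roots and shoots in a test of the difference itself. They describe members chosen for a large shoot change. At 6 h, 63 members differed, beside 5.57% of all probe sets tested. The root change minus the shoot change was −3.81 for AT1G51090, −4.24 for AT4G34950, −5.45 for AT1G20030, −5.0 for AT3G04010 and −4.07 for LTI30 on the log2 scale, each smaller in roots.

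At 12 h, 66 members differed, beside 19.1% of all probe sets tested. The root change was smaller for AT1G20030 (−6.21), LTI30 (−5.43) and AT3G04010 (−5.06), and larger for AT1G19020 (2.78), SRC2 (1.34) and AT1G02660 (0.82). LTI30 and AT3G04010 had root levels above those of shoots at 1 h, and AT1G20030 stayed under an intensity of 30 on every root array. The shoot arrays of 1 h lay under 30 for AT1G51090, AT4G34950, AT1G20030, AT3G04010 and LTI30. The sizes of their differences therefore depend on the 10 added to each value.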

How the results depend on the processing

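Every count of members called, for roots at 5 times against 0.5 h, shoots at 2 against 1 h and the tissue difference at 2, stayed within 1.5 times its value under the alternatives run. Counts of steps between neighbouring times, of levels and of larger changes in roots moved by more, as given beside them. The rule itself gave 72 members when each of the 2 arrays had to meet it and 99 with arrays rescaled to 1 median. With single arrays left out the counts in roots were 2 at 1 h, 33 to 46 at 3 h, 64 to 66 at 6 h, 72 to 76 at 12 h and 75 to 79 at 24 h, those in shoots 87 to 88 at 6 h and 83 to 84 at 12 h, and those that differed between tissues 55 to 63 at 6 h and 60 to 67 at 12 h. The median root change at 24 h of 2.44 was 2.64 with arrays centred on their medians, which takes out the shift of −0.21 over all probe sets, 2.63 with a pseudocount of 1, 2.14 with one of 30 and 2.35 to 2.49 with single arrays left out. With a replicate block 45 members were called in roots at 3 h and 80 at 24 h, but the numbers do not pair the arrays: deviations of same-numbered root groups correlated at −0.451 to 0.330.

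Of 81 values of named members 10 lost their call at least once and 6 gained one. Those that turned sign were short of the threshold. With single arrays left out the root change ranged at 3 h from −0.43 to 0.13 for COR15B, −0.19 to 0.30 for AT1G19370, −0.0092 to 0.52 for AT4G34950, −0.34 to 0.12 for AT1G20030, −0.033 to 0.23 for AT1G22570, −0.50 to 0.019 for AT3G51660 and −0.34 to 0.41 for AT3G04010. At 6 h it ranged from −0.32 to 0.015 for AT1G20030, −0.022 to 0.080 for AT3G62550 and −0.12 to 0.11 for psaC, and at 24 h from −0.098 to 0.042 for AT3G51660. When the second root array of 3 h and the first shoot array of 1 h were left out together, chosen after seeing the data, it was 0.12 for AT1G20030, −0.033 for AT1G22570, 0.019 for AT3G51660 and −0.34 for AT3G04010 at 3 h. With median centring psaC was at 0.017 at 6 h, and AT3G51660 at 0.17 and AT3G62550 at 0.097 at 24 h. After quantile normalization AT3G62550 was at −0.036 at 6 h and 0.12 at 24 h, and AT3G51660 at 0.27 at 24 h. The cause was not tested. The promoter motif comparison was not run. Signals near an intensity of 30 limit what can be read for the dimmest members.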

Other observations

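The 7 members never called higher in roots include 3 with no gene listed, 266229_at, 250445_at and 249581_at. The root change at 24 h was smallest among the members without a single gene for 249581_at (−0.05) and largest for 248337_at (6.84), singled out after its values were seen. Probe set 248337_at read 32.0 and 55.0 in shoots and 45.9 and 24.9 in roots at 0.5 h, 327 and 273 against 112 and 224 at 3 h, and 6011 and 6557 against 4826 and 5320 at 24 h. Its 1 to 12 h change differed between tissues by 0.11 ± 0.41 (adjusted p = 0.88), and a difference was not shown.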
